A study of Mus musculus with 8 samples.

Results

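The core circadian clock genes are the 10 genes Arntl, Clock, Per1, Per2, Per3, Cry1, Cry2, Nr1d1, Nr1d2 and Dbp, chosen by name. A gene was read from a probe set that the platform annotation assigns to that gene alone. This held for 9 of the 10, out of 22180 genes on the array, and each of the 9 had 1 such probe set. The single probe set that covers Per2 is shared with 9830107B12Rik, so it has no value of its own here and the shared probe set is described apart. All 9 measured clock genes passed the filter on low values that left 13308 genes for testing, and their mean levels lay between the 67.4th and the 98.5th percentile of all genes.

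The cells are C2C12, a mouse myoblast line that fuses into multinucleated myotubes when differentiated. They carried a retrovirus for RNA interference, siBaf60c in the knockdown (SiBc) and siScramble in the control (Scrb). Baf60c, gene symbol Smarcd3, encodes a BAF-complex subunit, part of a machine that moves nucleosomes. After differentiation the myotubes spent 12 h in medium with 10 mM or 1 mM glucose, and total RNA was hybridised to Affymetrix Mouse Gene ST arrays. The 4 groups of 2 arrays are knockdown at 10 mM, knockdown at 1 mM, control at 10 mM and control at 1 mM. The series design calls the 2 arrays of a group independent biological replicates. Every group shares 1 cell line, retroviral transduction and 1 length of treatment (12 h). The clock time of harvest is not among the sample labels used here. A change of level and a shift of the phase of a daily rhythm therefore cannot be told apart.

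In mammals the clock is a feedback loop of transcription. CLOCK and BMAL1, the product of Arntl, bind E-box sequences and switch on the Period and Cryptochrome genes, whose products return to the nucleus and inhibit CLOCK and BMAL1. A connected loop runs through the nuclear receptors REV-ERB alpha and beta (Nr1d1 and Nr1d2), which repress Arntl, and the output factor DBP activates genes through D-box sequences. Skeletal muscle has its own clock, and many of its metabolic genes cycle over the day.

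RefSeq promoter windows (GRCm38.p6, from 250 bases before to 50 bases after an annotated transcript start) were found for 9 of the 10 genes, in 13 windows. Each was searched on both strands for the E-box CACGTG, for the D-box as TTATGTAA or TTACGTAA, and for GGGTCA. The last is a form of the core of the element that ROR and REV-ERB receptors bind. The form AGGTCA was not searched. E-boxes stood in a window of 2 of the 9 genes (Per1 and Cry1), D-boxes in that of Per3, and GGGTCA in none. The absence of GGGTCA therefore does not show that these windows lack the element. Among all 32851 windows of the same length, 7.15% held the E-box, 1.06% a D-box and 13.7% GGGTCA. Of 12 further clock transcription factors 10 had a window, and 4 of these (Bhlhe41, Tef, Ciart and Cipc) held an E-box. Per3 is shown for its 2 D-boxes, which start 205 and 158 bases before the transcript start. The Cry1 E-box starts 60 bases before it. Bhlhe41 and Ciart are shown because they rose and fell with glucose, with an E-box 153 bases before the start of Bhlhe41 and 3 E-boxes 116, 58 and 44 bases before that of Ciart. The windows lie on the minus strand at chr4:151044616-151044915 (Per3), chr10:85185005-85185304 (Cry1), chr6:145865371-145865670 (Bhlhe41) and chr3:95882179-95882478 (Ciart). They read 5′ to 3′ along the gene, with the D-boxes of Per3 and the E-boxes of the other genes in capitals.
Per3: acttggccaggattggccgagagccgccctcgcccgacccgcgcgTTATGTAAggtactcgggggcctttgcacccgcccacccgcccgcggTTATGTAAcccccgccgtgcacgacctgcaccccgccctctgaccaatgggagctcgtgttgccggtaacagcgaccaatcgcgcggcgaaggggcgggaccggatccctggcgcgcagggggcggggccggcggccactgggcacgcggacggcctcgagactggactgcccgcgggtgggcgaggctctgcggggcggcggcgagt
Cry1: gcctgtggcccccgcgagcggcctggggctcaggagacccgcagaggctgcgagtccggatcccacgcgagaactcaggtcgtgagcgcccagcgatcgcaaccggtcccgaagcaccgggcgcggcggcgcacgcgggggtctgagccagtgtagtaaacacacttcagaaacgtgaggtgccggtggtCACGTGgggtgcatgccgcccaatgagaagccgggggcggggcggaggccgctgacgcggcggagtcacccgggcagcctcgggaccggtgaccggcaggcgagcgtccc
Bhlhe41: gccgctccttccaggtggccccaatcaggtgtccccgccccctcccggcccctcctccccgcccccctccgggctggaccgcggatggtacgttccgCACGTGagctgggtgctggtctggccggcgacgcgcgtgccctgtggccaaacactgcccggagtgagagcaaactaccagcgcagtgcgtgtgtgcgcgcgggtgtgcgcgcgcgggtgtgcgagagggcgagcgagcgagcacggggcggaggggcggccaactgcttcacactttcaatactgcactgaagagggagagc
Ciart: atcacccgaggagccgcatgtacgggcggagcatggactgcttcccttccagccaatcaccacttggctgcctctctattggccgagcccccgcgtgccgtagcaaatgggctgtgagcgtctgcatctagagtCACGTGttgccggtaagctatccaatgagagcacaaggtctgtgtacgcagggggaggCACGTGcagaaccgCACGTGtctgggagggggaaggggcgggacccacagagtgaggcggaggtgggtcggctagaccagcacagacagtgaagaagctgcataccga
The matches are descriptions of these letters, and binding was not measured.

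**Figure D1:**
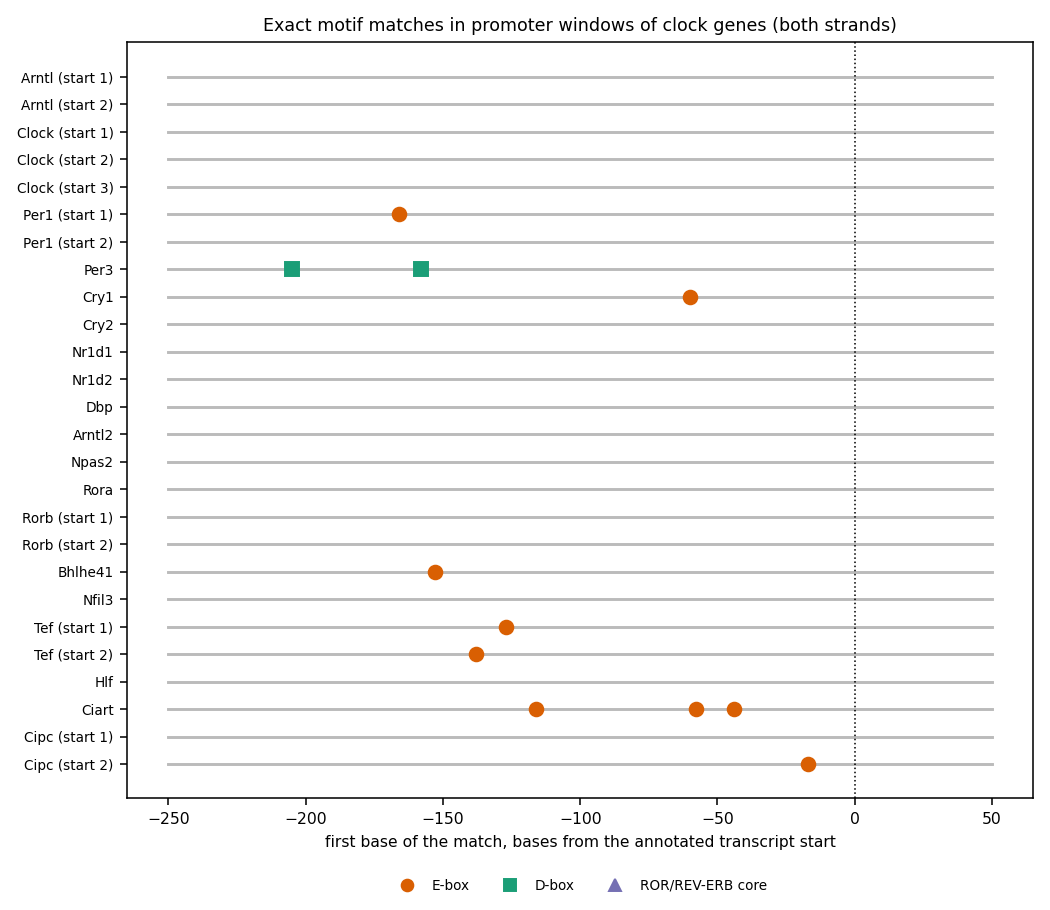
Exact matches to the E-box (circles), the D-box (squares) and GGGTCA (triangles, of which there are none) in promoter windows of the core clock genes and of the other clock transcription factors. GGGTCA is a form of the ROR/REV-ERB core, and the form AGGTCA was not searched. The horizontal axis gives the first base of the match relative to the annotated transcript start in bases, each grey line is 1 window from 250 bases before to 50 bases after the start, and genes with several annotated starts have a line for each. Per3 has 2 D-boxes and Ciart 3 E-boxes.

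Array quality and cell identity were read first. Replicates correlated across the tested genes at 0.987 to 0.990 and arrays of different groups at 0.939 to 0.984 (Pearson's r; genes are not independent replicates). The knockdown target could be read only through a probe set shared by Chpf2 and Smarcd3. It was lower in knockdown cells at 1 mM glucose (-2.62 ± 0.22 on the log2 scale, limma adjusted p = 0.00313) and at 10 mM (-1.98 ± 0.22, adjusted p = 0.0171). The mean log2 value of 8 myotube markers, among them Myog, Ckm and Myh3, lay between 7.74 and 9.86 on the 8 arrays, and that of 6 adipocyte markers between 2.54 and 2.81, near the filter value of 2.30. In these bulk samples, fewer cells of a type and less RNA per cell cannot be told apart.

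The glucose comparison asks how the clock genes differ between myotubes at the higher and the lower concentration. Cry2 and Nr1d2 fell with glucose in both knockdown and control cells, and Per3 rose in control cells. The activator pair Arntl and Clock, the inhibitor gene Per1, the receptor gene Nr1d1 and the output gene Dbp did not pass the test in either cell type. limma called 2 of 9 clock genes in knockdown cells (0 higher, 2 lower) and 3 of 9 in control cells (1 higher, 2 lower). The threshold was 0.05 for limma p-values after Benjamini-Hochberg adjustment over every tested gene. Of all genes, 25.1% were called in knockdown cells (14.5% higher, 10.6% lower) and 25.3% in control cells (13.2% higher, 12.1% lower), so the clock genes were called about as often as other genes. Their median change was -0.05 in knockdown cells and -0.10 in control cells, against 0.03 and -0.01 over all tested genes. In knockdown cells the count fell to 1 without replicate 1 or replicate 2 at 1 mM and to 0 without replicate 1 at 10 mM, and in control cells it fell to 1 without replicate 1 or replicate 2 at 10 mM and to 2 without either replicate at 1 mM.

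**Figure D2:**
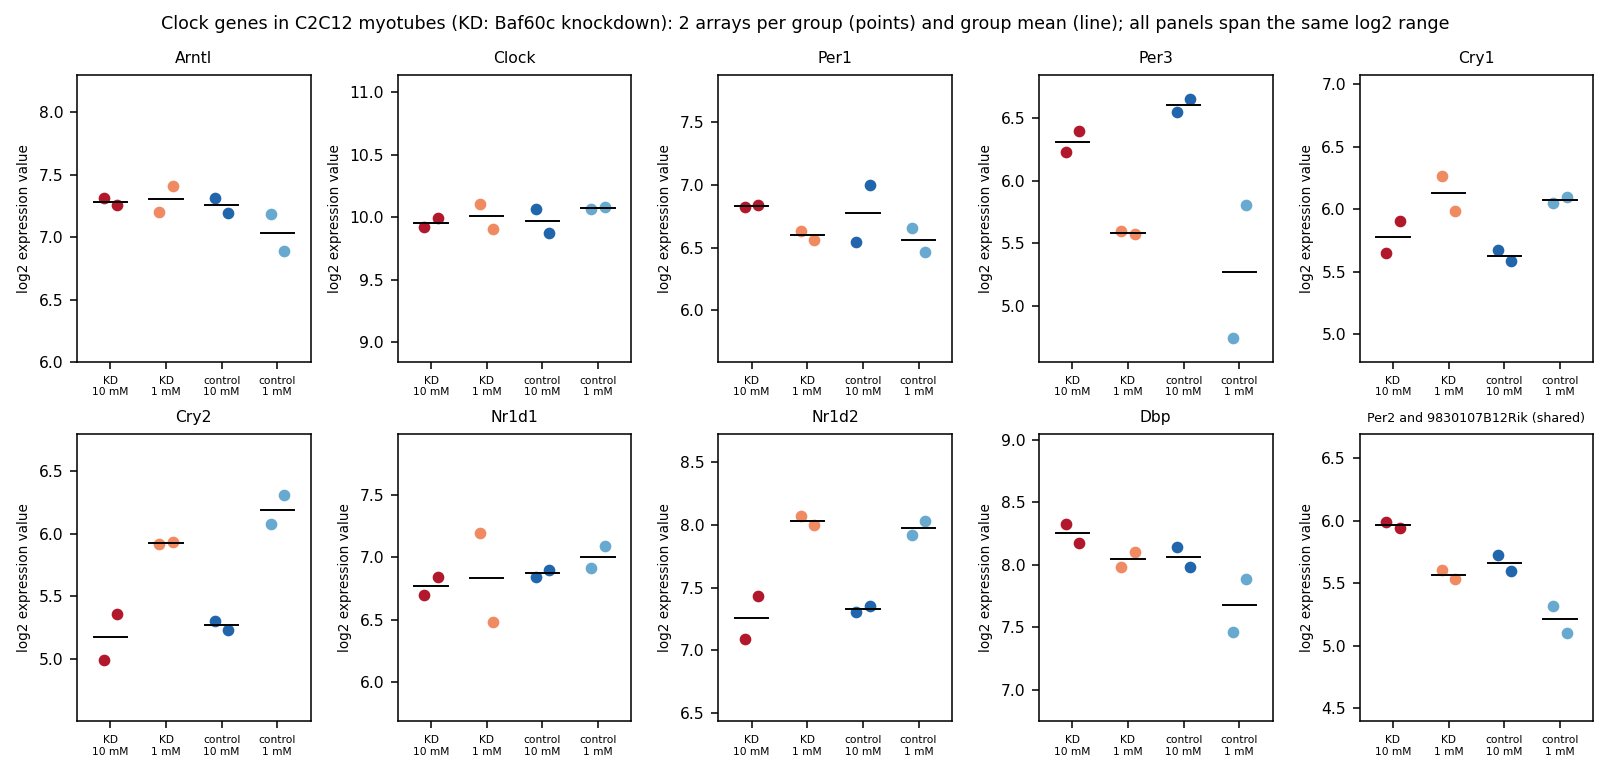
Log2 expression values (vertical axis) of the 9 measured clock genes and of the probe set shared by Per2 and 9830107B12Rik on each of the 8 arrays. Points are arrays, lines are means of 2 arrays, the groups run from knockdown (KD) at 10 mM glucose to control at 1 mM, and every panel covers the same number of log2 units, so heights of differences can be compared between panels while levels cannot. Cry2 and Nr1d2 are lower on all 4 arrays at 10 mM than on all 4 at 1 mM, and Per3 is higher.

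The Cryptochromes are inhibitors of CLOCK and BMAL1. Cry2 read 4.99 and 5.36 in knockdown cells at 10 mM, against 5.92 and 5.94 at 1 mM, and 5.31 and 5.23 in control cells at 10 mM, against 6.08 and 6.31 at 1 mM (log2 expression values). The groups did not overlap in either cell type. The change was -0.76 ± 0.16 in knockdown cells (SE, n = 2 arrays per group, limma adjusted p = 0.0140) and -0.92 ± 0.16 in control cells (limma adjusted p = 0.00649), or 1.69-fold and 1.90-fold lower. In control cells the call of Cry2 remained under all 15 alternatives, while in knockdown cells it was lost without either replicate at 1 mM or replicate 1 at 10 mM.

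Cry1, the paralog of Cry2, read 5.65 and 5.90 in knockdown cells at 10 mM, against 6.27 and 5.99 at 1 mM, and 5.67 and 5.58 in control cells at 10 mM, against 6.05 and 6.09 at 1 mM. All 4 arrays at 10 mM lay below all 4 at 1 mM. The change did not pass the test in knockdown cells (-0.35 ± 0.15, limma adjusted p = 0.141) or in control cells (-0.45 ± 0.15, limma adjusted p = 0.0734). With the stricter filter on low values it passed in control cells (limma adjusted p = 0.0342). That filter tests fewer genes and also estimates the spread shared by genes anew.

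The Period genes encode the partners of the Cryptochromes. Per3 read 6.23 and 6.40 in knockdown cells at 10 mM, against 5.60 and 5.57 at 1 mM. In control cells it read 6.55 and 6.66 at 10 mM, against 4.74 and 5.80 at 1 mM. All arrays at 10 mM were above all arrays at 1 mM, and replicate 1 of control cells at 1 mM lay far below its partner. Per3 rose 2.52-fold in control cells (1.33 ± 0.30, limma adjusted p = 0.0178), and its change of 0.73 ± 0.30 in knockdown cells did not pass the test (adjusted p = 0.127). The size in control cells rests on that replicate: the change was 0.80 without it (adjusted p = 0.0251) and 1.87 without its partner (adjusted p = 0.00252). Without replicate 1 or replicate 2 of control cells at 10 mM the call was lost (adjusted p = 0.0648 and 0.0876), whereas without either control replicate at 1 mM the change in knockdown cells passed (adjusted p = 0.0119). The residual spread of Per3 was at the 90.4th percentile of all tested genes, the highest of the 9 clock genes.

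Per1 read 6.82 and 6.84 in knockdown cells at 10 mM, against 6.64 and 6.56 at 1 mM. Control cells read 6.55 and 6.998 at 10 mM, against 6.66 and 6.47 at 1 mM, and these overlap. The change was 0.23 ± 0.17 in knockdown cells (95% interval -0.17 to 0.64) and 0.21 ± 0.17 in control cells (95% interval -0.19 to 0.61), with limma adjusted p = 0.380 and 0.418. The probe set shared by Per2 and 9830107B12Rik read 5.99 and 5.94 in knockdown cells at 10 mM, against 5.60 and 5.53 at 1 mM, and 5.72 and 5.60 in control cells at 10 mM, against 5.32 and 5.10 at 1 mM. Its change was 0.40 ± 0.13 in knockdown cells (limma adjusted p = 0.0696) and 0.45 ± 0.13 in control cells (adjusted p = 0.0470). This call was lost with each array centred on its median (adjusted p = 0.0687), with the trend and robust options (0.0739) and with the replicate block (0.0504), and how much of the signal comes from Per2 was not resolved.

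Of the REV-ERB genes, Nr1d2 passed the test and Nr1d1 did not, and the difference between the genes was not tested. Nr1d2, which encodes REV-ERB beta, read 7.09 and 7.43 in knockdown cells at 10 mM, against 8.07 and 8.001 at 1 mM. In control cells it read 7.30 and 7.35 at 10 mM, against 7.92 and 8.03 at 1 mM. No array at 10 mM reached any array at 1 mM. Nr1d2 fell 1.71-fold in knockdown cells (-0.78 ± 0.15, limma adjusted p = 0.00866) and 1.57-fold in control cells (-0.65 ± 0.15, limma adjusted p = 0.0185). In knockdown cells the call was lost without replicate 1 at 10 mM (adjusted p = 0.0589), and in control cells without any 1 of the 4 control arrays, with values from -0.70 to -0.60 over all alternatives.

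Nr1d1, which encodes REV-ERB alpha, read 6.70 and 6.84 in knockdown cells at 10 mM, against 7.19 and 6.48 at 1 mM. Control cells read 6.84 and 6.89 at 10 mM, against 6.91 and 7.08 at 1 mM. The knockdown groups overlap, since the replicates at 1 mM lie on either side of those at 10 mM. The change was -0.07 ± 0.23 in knockdown cells (95% interval -0.60 to 0.46) and -0.13 ± 0.23 in control cells (95% interval -0.66 to 0.40). The interval in control cells still holds a fall as large as that of Nr1d2 there. Nr1d1 lies at chr11:98767932-98775377 and its span overlaps that of Thra, the thyroid hormone receptor alpha gene. The spans of Arntl, Clock, Per2, Per3, Cry2 and Dbp overlap other annotated genes too.

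The activator genes did not pass the test in either cell type. Clock read 9.92 and 9.99 in knockdown cells at 10 mM, against 10.11 and 9.90 at 1 mM, and 10.06 and 9.87 in control cells at 10 mM, against 10.06 and 10.08 at 1 mM. Its residual spread was the lowest of the 9 genes, at the 18.2nd percentile of all tested genes. Its change was -0.05 ± 0.14 in knockdown cells and -0.10 ± 0.14 in control cells, and the 95% intervals reached from -0.37 to 0.27 and from -0.43 to 0.22. Arntl read 7.31 and 7.26 in knockdown cells at 10 mM, against 7.20 and 7.41 at 1 mM. In control cells Arntl read 7.31 and 7.19 at 10 mM, against 7.18 and 6.89 at 1 mM. Its change was -0.02 ± 0.15 in knockdown cells and 0.22 ± 0.15 in control cells (limma adjusted p = 0.931 and 0.337). Arntl was thus the exception to 8 of 9 clock genes with the same sign in both cell types. Some of these 8, such as Clock, changed little, and the share of all genes with the same sign was not counted.

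Dbp, the PAR bZIP output factor of the clock, read 8.33 and 8.18 in knockdown cells at 10 mM, against 7.98 and 8.10 at 1 mM. Control cells read 8.14 and 7.98 at 10 mM, against 7.46 and 7.89 at 1 mM. Arrays at 10 mM were above those at 1 mM within each cell type. The change did not pass the test in knockdown cells (0.21 ± 0.17, limma adjusted p = 0.424) or in control cells (0.39 ± 0.17, limma adjusted p = 0.144).

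**Figure D3:**
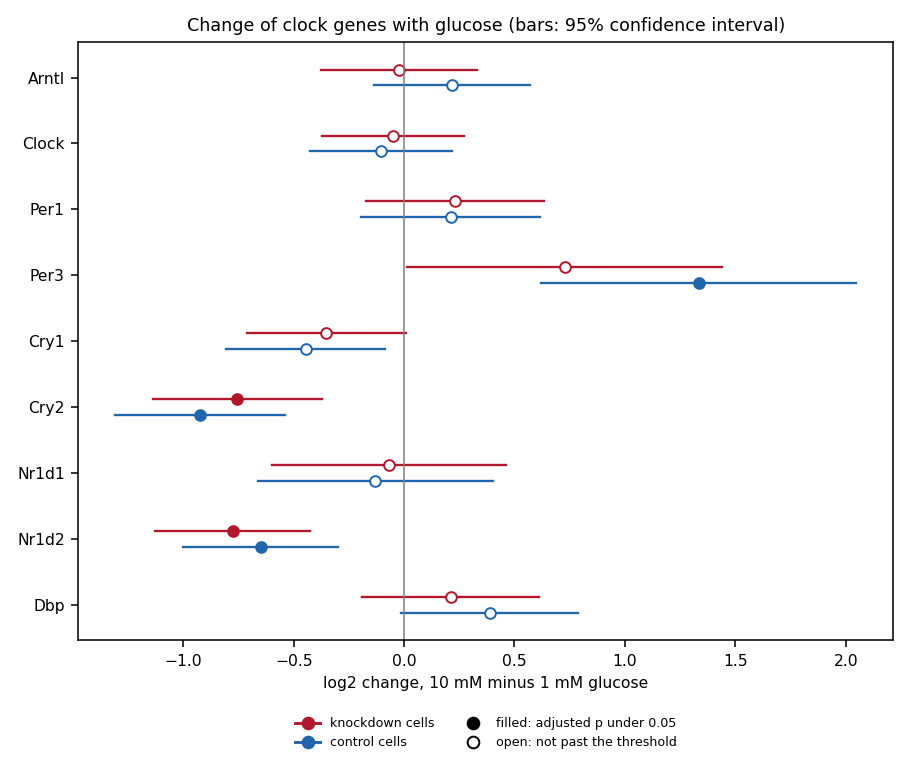
Log2 change at 10 mM relative to 1 mM glucose (horizontal axis) for the 9 measured clock genes, in knockdown cells (red, upper) and control cells (blue, lower). Bars are 95% confidence intervals from limma with 2 arrays per group, and filled points passed an adjusted p of 0.05. Cry2 and Nr1d2 are filled and below 0 in both cell types, and Per3 is filled in control cells alone, although the difference between the cell types did not pass its own test.

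Averaging the glucose change over both cell types sets 4 arrays at 10 mM against 4 at 1 mM. This contrast was added after the values were seen. By limma it called 4 of 9 clock genes (1 higher, 3 lower), against 39.1% of all genes (21.3% higher, 17.8% lower). Cry2 fell 1.79-fold (-0.84 ± 0.12, limma adjusted p = 0.00112), Nr1d2 1.64-fold (-0.71 ± 0.11, adjusted p = 0.00161) and Cry1 1.32-fold (-0.40 ± 0.11, adjusted p = 0.0234), and Per3 rose 2.04-fold (1.03 ± 0.22, adjusted p = 0.00782). The calls of Cry2, Nr1d2 and Per3 remained under all 14 alternatives, and that of Cry1 was lost in 5 of the 8 fits that left out an array. For these 3 falls and 1 rise the arrays at 10 mM did not overlap those at 1 mM. Over all tested genes, 16.7% separated downwards in this way and 18% upwards. Dbp changed by 0.30 ± 0.12 (adjusted p = 0.0914), Per1 by 0.22 ± 0.12 (adjusted p = 0.196), Nr1d1 by -0.10 ± 0.16, Arntl by 0.10 ± 0.11 and Clock by -0.08 ± 0.10.

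Cell cycle and fibroblast genes moved with the same comparison. The summed linear level of the 7 measured cell cycle genes was 992 to 1305 in knockdown cells at 10 mM, against 176 to 244 at 1 mM, and 1159 to 1404 in control cells at 10 mM, against 192 to 201 at 1 mM. All 7 rose in both cell types. For 8 fibroblast genes the sum was 7566 to 7928 in knockdown cells at 10 mM, against 3968 to 4140 at 1 mM, and 7608 to 7889 in control cells at 10 mM, against 4164 to 4294 at 1 mM. Of the 6 fibroblast genes past the filter, 5 rose in knockdown and 6 in control cells. Of all genes, 14.5% were called higher in knockdown and 13.2% in control cells. The sum of the 8 myotube markers was 7599 to 8022 in knockdown cells at 10 mM, against 3957 to 4246 at 1 mM, and 12029 to 13130 in control cells at 10 mM, against 8292 to 8937 at 1 mM. For 8 undifferentiated myoblast markers the sum was 581 to 587 in knockdown cells at 10 mM, against 1030 to 1066 at 1 mM. In control cells it was 694 to 776 at 10 mM, against 1035 to 1135 at 1 mM. Of these 8, limma called 2 higher and 2 lower in each cell type, against 25.1% of all genes in knockdown and 25.3% in control cells. No marker read 0 on any array, and the part of these cell states in the clock gene changes was not tested.

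Knockdown of Baf60c was then compared with control at each glucose level, to ask whether clock genes depend on this subunit. limma called 0 of the 9 clock genes at 10 mM and 0 of 9 at 1 mM, against 1.12% (0.428% higher, 0.691% lower) and 1.49% (0.233% higher, 1.25% lower) of all genes, and at an unadjusted p under 0.05 the count was also 0 at both levels, against 1807 of all 13308 genes at 10 mM and 2115 at 1 mM. The changes lay between -0.29 (Per3) and 0.19 (Dbp) at 10 mM and between -0.26 (Cry2) and 0.37 (Dbp) at 1 mM. Averaged over both glucose levels, a contrast added after the values were seen, Dbp was highest at 0.28 ± 0.12 (95% interval -0.01 to 0.56, limma adjusted p = 0.266) and Cry2 lowest at -0.18 ± 0.12 (95% interval -0.45 to 0.09, limma adjusted p = 0.441). Again 0 of 9 were called, against 4.31% of all genes (1.6% higher, 2.71% lower), and 0 at an unadjusted p under 0.05, against 19.7% of all genes. Nr1d2 differed by 0.00 ± 0.11, with an interval from -0.25 to 0.25. For Per3 the interval from -0.49 to 0.52 was wider. The probe set shared by Per2 and 9830107B12Rik, which is not among the 9, was higher on both knockdown arrays than on both control arrays at each glucose level. Its change was 0.30 ± 0.13 at 10 mM (limma adjusted p = 0.381), 0.36 ± 0.13 at 1 mM (adjusted p = 0.257, unadjusted 0.0311) and 0.33 ± 0.09 on average (95% interval 0.11 to 0.55, adjusted p = 0.112, unadjusted 0.00940), and none of these passed.

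Of the measured clock genes, knockdown and control arrays did not overlap at 10 mM for Per3, Nr1d1 and Dbp. At 1 mM they did not overlap for Dbp, Arntl and Cry2. With 2 arrays against 2, such separation is frequent even where groups do not differ, so it is not read as a result here. How often this happened over all genes was not counted, and none of these changes passed. At 1 mM Dbp read 7.98 and 8.10 in knockdown cells, against 7.46 and 7.89 in control cells. Its change was 0.37 ± 0.17 (limma adjusted p = 0.357). Arntl at 1 mM read 7.20 and 7.41 in knockdown cells, against 7.18 and 6.89 in control cells (0.27 ± 0.15, limma adjusted p = 0.444). Cry2 at 1 mM read 5.92 and 5.94 in knockdown cells, against 6.08 and 6.31 in control cells (-0.26 ± 0.16, limma adjusted p = 0.486). Across the 4 groups, Cry2 was lowest in knockdown cells at 10 mM (5.17 ± 0.26, SD, n = 2), overlapping control cells at 10 mM (5.27 ± 0.05), and then came knockdown cells at 1 mM (5.93 ± 0.01) and control cells at 1 mM (6.19 ± 0.17). For Nr1d2 the order was 7.26 ± 0.24 in knockdown and 7.33 ± 0.03 in control cells at 10 mM, which overlap, then 7.97 ± 0.08 in control and 8.04 ± 0.05 in knockdown cells at 1 mM, which overlap too. Beside these values, 6 of 8 myotube markers fell in knockdown cells at 1 mM and 3 of 8 at 10 mM. Of all genes, 1.25% were called lower at 1 mM and 0.691% at 10 mM. The part of the myotube markers in the clock gene values was not tested.

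**Figure D4:**
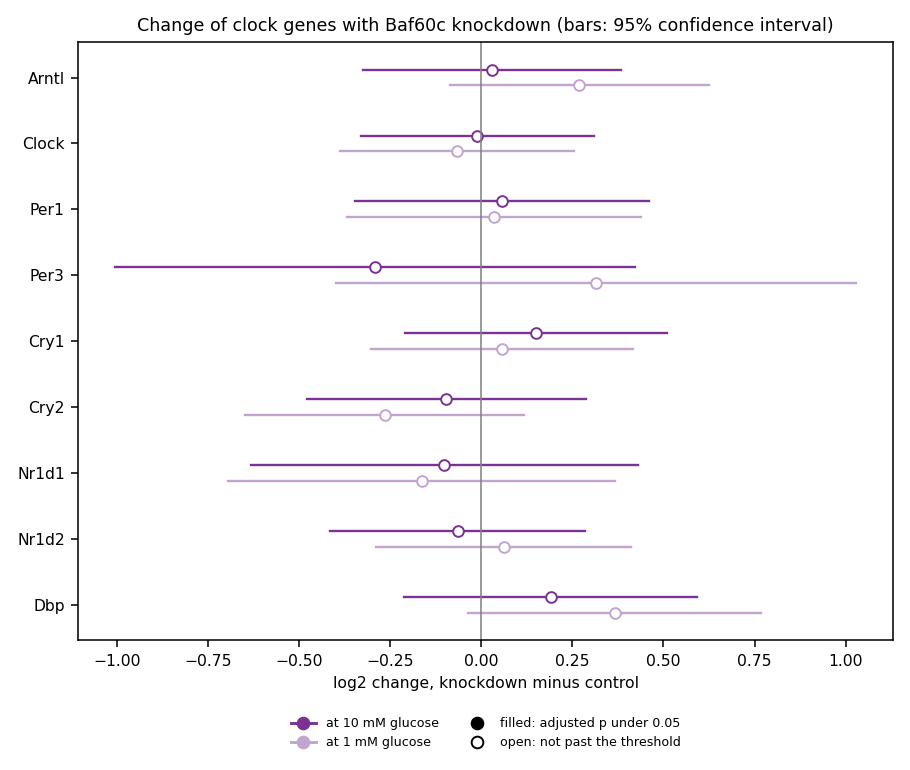
Log2 change in Baf60c knockdown relative to control cells (horizontal axis) for the 9 measured clock genes at 10 mM glucose (dark, upper) and 1 mM glucose (light, lower). Bars are 95% confidence intervals from limma with 2 arrays per group. Every point is open, since none of the 9 genes passed an adjusted p of 0.05 in either comparison.

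Whether the glucose change itself differed between knockdown and control cells was tested as an interaction. limma called 0 of 9 clock genes and 0% of all 13308 genes, and at an unadjusted p under 0.05 it counted 0 of 9 clock genes and 1049 of all genes. The largest difference was that of Per3, whose change was 0.73 in knockdown and 1.33 in control cells (-0.61 ± 0.43, 95% interval -1.62 to 0.40, limma adjusted p = 0.777). Cry2 differed by 0.17 ± 0.23 (95% interval -0.37 to 0.71) and Nr1d2 by -0.13 ± 0.21 (95% interval -0.62 to 0.37). With 2 arrays per group, a difference as large as the fall of Nr1d2 in control cells was within reach of the Cry2 interval, so the responses are not shown to be alike.

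Genes whose profile was closest to a clock gene were found from the root mean square (RMS) difference of log2 values over the 8 arrays, each gene centred on its own mean. This was done for the 4 clock genes with the widest range of group means. Around Cry2 (range 1.02) stood Prmt7, an arginine methyltransferase gene, at an RMS difference of 0.065, Btbd11 at 0.073 and Hnrnpa3, an RNA-binding protein gene, at 0.076. Nearest to Nr1d2 (range 0.78) were Nufip1 at 0.069, the ubiquitin-conjugating enzyme gene Ube2w at 0.069 and the RNA helicase gene Ddx10 at 0.073. Per3 (range 1.33) had no neighbour as near: the DNA glycosylase gene Mutyh was at 0.173, Ssc5d at 0.179 and the corepressor subunit gene Tbl1xr1 at 0.181. For Dbp (range 0.58) the nearest were Tagln2 at 0.084, the chromatin remodeller gene Smarca5 at 0.087 and Praf2 at 0.090. None of these 12 neighbours was another core clock gene. So few were taken from all tested genes that this does not show whether clock genes move together.

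Among the other clock transcription factors, Ciart fell and Bhlhe41 rose with glucose in both cell types. Of 11 tested, 2 were called by limma with glucose in knockdown cells (1 higher, 1 lower) and 6 in control cells (3 higher, 3 lower), against 25.1% and 25.3% of all genes. Their median change was 0.12 in knockdown and 0.22 in control cells. Ciart (Chrono), which encodes a repressor of CLOCK and BMAL1 and whose promoter with 3 E-boxes is shown above, had the largest change. It read 4.61 and 5.33 in knockdown cells at 10 mM, against 6.55 and 6.77 at 1 mM, and 4.80 and 4.57 in control cells at 10 mM, against 6.68 and 6.48 at 1 mM. The groups did not overlap, and Ciart fell 3.22-fold in knockdown cells (-1.69 ± 0.24, adjusted p = 0.00243) and 3.73-fold in control cells (-1.90 ± 0.24, adjusted p = 0.00178). Bhlhe41 (Dec2), another E-box repressor, moved the opposite way. It read 8.38 and 8.21 in knockdown cells at 10 mM, against 6.98 and 7.39 at 1 mM, and 8.35 and 8.40 in control cells at 10 mM, against 7.24 and 7.41 at 1 mM. It was 2.15-fold higher at 10 mM in knockdown cells (limma adjusted p = 0.00323) and 2.08-fold higher in control cells (0.00439). Its paralog Bhlhe40 (Dec1) changed by 0.12 ± 0.16 and 0.32 ± 0.16 and was not called in either.

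Factors that act through D-boxes include Nfil3, Tef and Hlf. Nfil3 (E4BP4), which represses D-box genes, changed by -0.71 ± 0.30 in knockdown cells (limma adjusted p = 0.124) and fell 2.40-fold in control cells (-1.26 ± 0.30, adjusted p = 0.0197). The fall in control cells was -0.80 without replicate 1 at 1 mM (limma adjusted p = 0.05998) and -1.73 without its partner (adjusted p = 0.00708), and the call was also lost without replicate 1 or replicate 2 at 10 mM (adjusted p = 0.0989 and 0.0523). Tef, a PAR bZIP activator like Dbp, changed by 0.15 ± 0.19 in knockdown cells (limma adjusted p = 0.628) and rose 1.91-fold in control cells (adjusted p = 0.0112), a call lost without either control replicate at 10 mM. Hlf, the third PAR bZIP gene, changed by -0.08 ± 0.39 in knockdown cells and by 0.15 ± 0.39 in control cells (limma adjusted p = 0.902 and 0.818). Neither difference between cell types passed the interaction test (adjusted p = 0.794 for Nfil3 and 0.585 for Tef). Rora, whose product activates Arntl, changed by -0.18 ± 0.16 in knockdown cells and fell in control cells (-0.56 ± 0.16, limma adjusted p = 0.0429). The call of Rora was lost in 7 of the 8 fits that left out an array, and its change was -0.37 without replicate 2 of control cells at 10 mM. Npas2, the paralog of Clock, changed by 0.68 ± 0.25 in both knockdown and control cells (limma adjusted p = 0.0842 and 0.0863), at low levels of 2.60 to 4.50 over the 8 arrays. Arntl2, named after its values were seen, rose in control cells (0.82 ± 0.24, limma adjusted p = 0.0469), a call lost in 6 of those 8 fits. With Baf60c knockdown, 0 of the 11 factors were called by limma at 10 mM and 0 at 1 mM, against 1.12% and 1.49% of all genes. These counts do not set the factors apart from other genes.

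**Figure D5:**
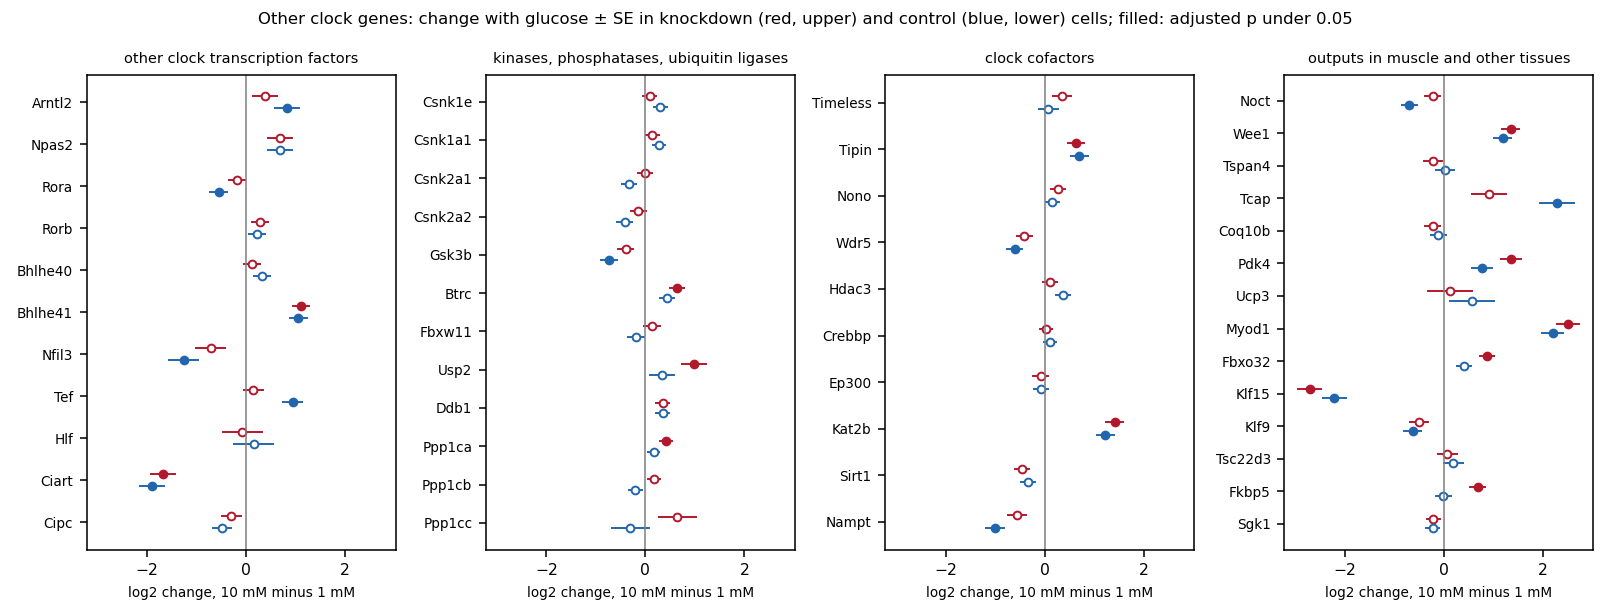
Log2 change at 10 mM relative to 1 mM glucose (horizontal axis) for the tested members of 4 lists of other clock genes, in knockdown (red, upper) and control cells (blue, lower). Bars are ± 1 SE from limma with 2 arrays per group and filled points passed an adjusted p of 0.05. Ciart lies below 0 and Myod1 and Bhlhe41 above 0 in both cell types, all filled. Klf15 is also filled below 0, but it passed the filter on low values only through its level at 1 mM.

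Of 12 tested clock-modifying kinases, phosphatases, ubiquitin ligases and related genes, limma called 3 with glucose in knockdown cells (3 higher) and 1 in control cells (1 lower), against 25.1% and 25.3% of all genes, so neither count stands above the background. In knockdown cells Btrc, a subunit of the ligase that marks Period proteins for breakdown, rose 1.56-fold (adjusted p = 0.0150), the deubiquitinase gene Usp2 1.97-fold (adjusted p = 0.0220) and the phosphatase gene Ppp1ca 1.34-fold (adjusted p = 0.0361). Gsk3b, a kinase of several clock proteins, fell 1.66-fold in control cells (limma adjusted p = 0.0137). Of 10 tested cofactors, 2 rose in knockdown cells, and 2 rose and 2 fell in control cells, again against 25.1% and 25.3% of all genes. The acetyltransferase gene Kat2b rose 2.67-fold with Baf60c knocked down (limma adjusted p = 0.00120) and 2.33-fold in the control (0.00250), and Tipin, the partner of Timeless, 1.55-fold and 1.62-fold (adjusted p = 0.0315 and 0.0218). Nampt, which makes the NAD used by SIRT1 and is itself a clock target, changed by -0.56 ± 0.18 in knockdown cells (limma adjusted p = 0.0586) and fell 2.00-fold in control cells (adjusted p = 0.00667), where Wdr5 fell 1.52-fold (adjusted p = 0.0234).

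Genes known as clock outputs in muscle and other tissues moved both ways. Of 14 tested, limma called 6 with glucose in knockdown cells (5 higher, 1 lower) and 7 in control cells (4 higher, 3 lower), against 25.1% and 25.3% of all genes. Klf15, a transcription factor of muscle amino acid and lipid use, read 2.09 and 1.71 in knockdown cells at 10 mM, against 4.64 and 4.58 at 1 mM, and 2.24 and 1.84 in control cells at 10 mM, against 4.002 and 4.50 at 1 mM. It counts among the lower genes in both cell types, but it passed the filter only through its level at 1 mM, since all 4 arrays at 10 mM lay below the filter value, and no fold is given. Myod1, the myogenic regulator, rose 5.71-fold in knockdown and 4.58-fold in control cells (adjusted p = 0.000374 and 0.000718). The cell cycle kinase gene Wee1 rose 2.54-fold in knockdown and 2.27-fold in control cells (limma adjusted p = 0.00164 and 0.00318). Pdk4, an inhibitor of pyruvate dehydrogenase, rose 2.57-fold and 1.71-fold (limma adjusted p = 0.00273 and 0.0276). Tcap, a Z-disc protein gene, changed by 0.91 ± 0.35 in knockdown cells (limma adjusted p = 0.0999) and rose 4.88-fold in control cells (adjusted p = 0.00362). Myod1 and Tcap are also muscle genes. Of the 8 myotube markers above, 8 rose in knockdown and 5 in control cells, against 14.5% and 13.2% of all genes called higher. In the 8 fits that left out an array, an alternative added after the values were seen, the calls of Ciart, Bhlhe41, Kat2b, Wee1 and Myod1 remained in both cell types, as did those of Nampt and Tcap in control cells and of Pdk4 in knockdown cells. Those of Btrc, Usp2, Ppp1ca and Tipin in knockdown cells, and of Gsk3b, Tipin, Wdr5 and Pdk4 in control cells, were each lost in 2 to 6 of the 8. For Usp2 the change was 0.64 without replicate 1 of knockdown cells at 1 mM, against 0.98 with all arrays.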

How the data were processed

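Total RNA of 8 samples was measured on 1 array each. The deposited table holds log2 values that the authors made; the submitters' processing notes name RMA and affy. Versions and the genome build of the probe sets are not given in the sources used here. RMA equalises the distributions of the arrays and compresses changes of dim probe sets. The number of arrays limits the precision: the median 95% interval reached 0.41 to either side of a log2 change.

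Of 41345 probe sets, 23521 were assigned to 1 gene by the platform annotation; a gene with several was read from the one with the highest mean over 8 arrays. Genes with a mean below the 40th percentile (2.30) were left out. Changes were tested with limma 3.58.1 in R 4.3.3 (lmFit, eBayes; 1 mean per group over 8 arrays; two-sided), with Benjamini-Hochberg adjustment over 13308 genes. Shared probe sets were fitted in a second run with those genes. The fit was tested on simulated data. Sequences are RefSeq's (GRCm38.p6).

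Named genes are all clock genes, up to 4 called members per list and comparison with the smallest p, 7 clock factors with their values (Bhlhe40, Bhlhe41, Nfil3, Tef, Npas2, Rora, Ciart), the knockdown target, and the 3 nearest genes of 4 clock genes. Members and lists were chosen with earlier results of these data known. Alternatives changed the filter, scaling, variance model, probe set rule, arrays in the fit and replicate block, and left out each array in turn.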

Additional observations from a re-analysis of the deposited data

How the results depend on the processing

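Over the 9 clock genes, the count called with glucose was 3 in control cells under all alternatives that kept every array, except the stricter filter (4), and 1 to 3 in the fits that left out 1 array, where a lone array is assumed to vary like the other groups. In knockdown cells it was 2, but 3 with only the arrays of the groups compared, and 0 to 3 with 1 array left out. For the average over both cell types it was 4, but 5 with the stricter filter and with the trend and robust options, and 3 to 4 with 1 array left out. It was 0 for both knockdown comparisons, their average and the interaction under every alternative. The cause of these differences was not tested. The stricter filter tests fewer genes and also estimates the spread shared by genes anew. Among single changes, 856 of the values under alternatives kept their sign and their side of the threshold, 18 fell short of it, 7 passed it, and 46 that never passed changed sign. None of the called changes turned its sign. The replicate block gave 3 and 2 calls in control and knockdown cells, as without it. Same-numbered arrays deviated together at r = -0.04 to 0.11 across genes, so the numbers are not shown to pair the samples. After median centring of the arrays, the share of higher genes among all calls in knockdown cells was 46.9% in place of 57.9%. The 2 arrays per group and the dim signal of Klf15, Npas2 and Arntl2 limit these values.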

Other observations

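Among the clock genes outside the core list, limma called 3 in knockdown against control cells averaged over both glucose levels, against 4.31% of all genes. They were 1 of 11 tested transcription factors, 1 of 12 kinases, phosphatases, ligases and related genes, 0 of 10 cofactors and 1 of 14 outputs. The averaged contrast was added after the values were seen. The orphan receptor gene Rorb changed by -0.76 ± 0.11 (adjusted p = 0.0147), Usp2 fell 1.74-fold (adjusted p = 0.0444) and Myod1 fell 1.88-fold (adjusted p = 0.0225). Rorb did not pass at 10 mM (-0.73, limma adjusted p = 0.0934) or at 1 mM alone (-0.79, adjusted p = 0.0715). The averaged call of Rorb was lost in 5, of Usp2 in 7 and of Myod1 in 6 of the 8 fits that left out an array.

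A second probe set that covers Cry2, shared with D930015M05Rik, read 1.44 to 2.31 on all 8 arrays, near the lower end of the scale. It changed by 0.15 ± 0.25 with glucose in knockdown cells and by -0.23 ± 0.25 in control cells, and was not called by limma in either (adjusted p = 0.708 and 0.553).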
